A study of Mus musculus with 2 samples.

Results

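The loci described here carry the genes for the IL-17 cytokines and for receptors and a kinase of IL-17-producing γδ T cells, and the measurement is where the transcription factor TCF1 was found on chromatin there. The 6 genes were Il17a, Il17f, Il23r, Il1r1, Blk and Il7r. Each was represented by a fixed stretch of the mm9 genome, with Il17a and Il17f sharing a stretch because they are neighbours, which gave 5 windows of 130 to 190 kb and 760 kb in all. A deposited interval belonged to a window if it overlapped it by at least 1 bp. This rule took 27 of the 104683 intervals in the list. It used position only and no score, but the windows and genes were chosen with earlier results of these data known. That each gene lies in its window was taken from the rule and was not checked against an mm9 annotation.

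The list came from 1 chromatin immunoprecipitation library made with an anti-TCF1 antibody from mouse γδ T thymocytes. The mice had the C57BL/6 strain background and the genotype TCRbeta KO, Sox13tg+ and Sox13 ECFP KI/+, so the cells lacked the TCRβ gene, carried a Sox13 transgene and held an ECFP reporter in 1 Sox13 allele. They were sorted as γδ+, CD24+ and CFPlo/-, which are immature cells with little or no reporter signal. An input library of the same genotype and sort, with no antibody, was not analysed here. Animal age, the promoter of the transgene and any pooling of animals are not stated in the labels. There was 1 library and no replicate, so no value below has a replicate error and no test was made. A list of intervals does not measure RNA, so the labelled cell type could not be checked against its markers. Read depth is unknown.

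γδ T cells can acquire the capacity to make IL-17 while still in the thymus, before they meet a foreign antigen. IL-17A and IL-17F are related secreted cytokines that act on epithelial and stromal cells and bring neutrophils into tissues. In the mature cells, IL-23 and IL-1 trigger their release through receptors that contain the products of Il23r and Il1r1. Il7r encodes the α chain of the IL-7 receptor, needed for the survival of lymphoid precursors and γδ T cells, and Blk encodes a Src-family tyrosine kinase known from B cells and from the thymic development of IL-17-producing γδ T cells. TCF1, encoded by Tcf7, and SOX13 are both HMG-box factors, whose DNA-binding domains recognise short AT-rich sequences.

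The window of the cytokine pair held the highest interval of the 27. The promoters of Il17a and Il17f are shown here, but that interval was not placed relative to them. They are the 250 bases before the annotated start of each gene from RefSeq, build GRCm38.p6, on chromosome 1, written 5′ to 3′ in the direction of the gene, which is the plus strand for Il17a and the minus strand for Il17f. Capitals mark the letters CTTTGA, a core of the TCF/LEF recognition sequence, on either strand (TCAAAG on the other).
Il17a: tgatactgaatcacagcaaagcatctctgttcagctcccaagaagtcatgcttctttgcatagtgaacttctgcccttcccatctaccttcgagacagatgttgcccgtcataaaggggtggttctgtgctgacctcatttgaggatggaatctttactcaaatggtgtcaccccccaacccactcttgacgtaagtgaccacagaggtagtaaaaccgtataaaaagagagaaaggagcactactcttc
Il17f: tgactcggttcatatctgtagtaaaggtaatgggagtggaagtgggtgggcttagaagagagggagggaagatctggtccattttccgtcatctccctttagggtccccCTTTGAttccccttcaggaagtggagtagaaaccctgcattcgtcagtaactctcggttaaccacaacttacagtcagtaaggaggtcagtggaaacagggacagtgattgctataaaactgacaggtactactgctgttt
The Il17f promoter held 1 match, at bases 110 to 115 of the printed sequence, counted from 1 at its 5′ end. The match began 141 bases before the annotated start. The Il17a promoter held no match.

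The same letters were searched in the promoter table for all members, from 250 bases before to 50 bases after each start. The table held 6 promoters of 5 genes, with 2 for Il1r1, and none for Blk. The Il17f promoter was the 1 with a match among these 6, and 16.0% of all 32851 promoters in the table held one. The letters AACAAT, a SOX recognition core searched on both strands, occurred in 0 of the 6 and in 10.7% of all promoters, so no SOX match overlapped the TCF match. A match is a description of letters, and no match says only that these letters are not in this stretch. The deposited intervals are in mm9 and no mm9 sequence or annotation was used, so whether an interval covers either promoter was not analysed here. For the same reason an interval in a window is not assigned to the gene the window is named for. In the order of protein-coding genes in RefSeq, Il17a and Il17f lie between Pkhd1 and Mcm3, Il23r follows Il12rb2, Il1r1 lies between Il1r2 and Il1rl2, Blk between Gata4 and Fam167a, and Il7r between Capsl and Spef2. An interval may belong to one of these neighbours, or at Il23r to the gene after it, which is not named here.

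The 5 windows together held about as many intervals as the mean densities of their chromosomes would give over the same length. The count was 27 (95% Poisson interval 17.8 to 39.3, for counting error only). The densities of the chromosomes outside each window predicted 25.8. By window they predicted 4.83 at Il17a/Il17f, 4.64 at Blk, 5.74 at Il1r1, 4.45 at Il23r and 6.15 at Il7r. The median window of the same size on the chromosome held fewer, with 4 at Il1r1 and 3 at each other locus. The counts found were 8 at Il17a/Il17f, 8 at Blk, 6 at Il1r1, 4 at Il23r and 1 at Il7r, in windows of unequal size. Per 100 kb these were 5.0, 5.33, 3.16, 3.08 and 0.769, with 95% Poisson intervals that overlap. Strength was described by height, which is the deposited score divided by the width of the interval and multiplied by 50 bp. It was used because the score grew with width in the whole list (Spearman rho 0.80 across intervals, which share 1 library). What the score measures is not stated in the file or its labels. Heights of the 27 ran from 3.75 to 81.0 with a median of 31.1, against a median of 34.0 in the whole list. Their widths ran from 100 to 550 bp with a median of 200 bp, the same as the median of the list.

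**Figure D1:**
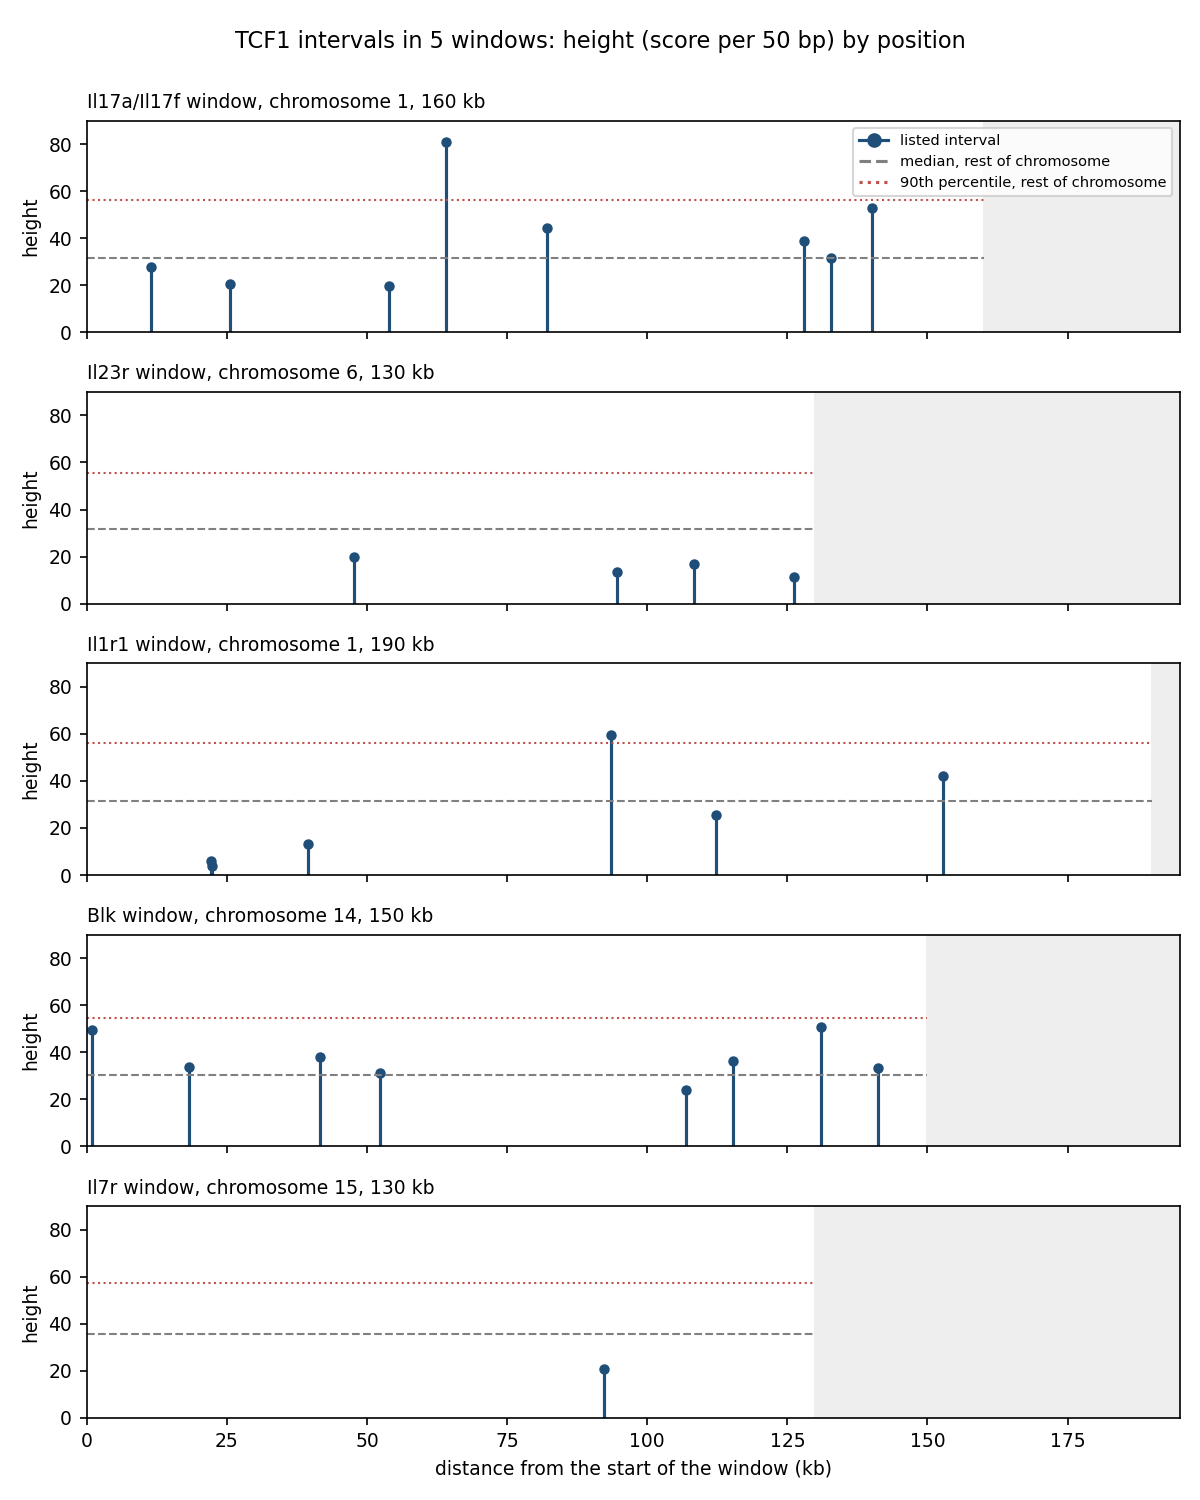
Each panel is a window, the x axis is the distance from its start in kb, and each point with its stem is 1 listed interval at its height (score per 50 bp). The dashed and dotted lines are the median and the 90th percentile of height in the rest of the chromosome, and grey marks the space past the end of a window. The Il17a/Il17f and Il1r1 windows each had 1 interval above the dotted line, and all intervals of the Il23r and Il7r windows lay below the dashed line.

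The heights of the 27 were spread over the list much like those of other intervals on their chromosomes. At or above the median height of the list were 10 of 27 (37.0%), against 46.9% of the 19381 intervals elsewhere on chromosomes 1, 6, 14 and 15. At or above its 75th percentile (46.1) were 5 of 27 (18.5%), against 23.2% elsewhere. At or above the 90th percentile (57.0) were 2 (7.41%), against 9.3%, and at or above the 99th (77.9) was 1 (3.70%), against 1.02%. With 27 intervals these shares are near the background on those chromosomes. None of the 27 exceeded 132.8, the height that 0.1% of the list exceeded. By window, those at or above the median of the list were 4 of 8 at Il17a/Il17f and 2 of 6 at Il1r1, against 45% in the rest of chromosome 1. They were 4 of 8 at Blk against 42.9% on chromosome 14, 0 of 4 at Il23r against 45.4% on chromosome 6, and 0 of 1 at Il7r against 53.9% on chromosome 15.

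The 27 intervals stood mostly alone. For 23 of 27 (85.2%) no other listed interval lay within 5 kb, against 48.8% of the intervals elsewhere on the same chromosomes. Another interval within 1 kb was listed for 2 of the 27, against 26.8% elsewhere. Those 2 were neighbours in the Il1r1 window, 100 bp apart. The shares elsewhere are taken over intervals, so dense stretches weigh more in them, while no window here held more than 8. The 5 kb limit was chosen after the data were seen. Whether the spacing is particular to these loci was not tested.

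The cytokine window, on chromosome 1 from 20670000 to 20830000, held 8 intervals, and the highest of all 27 was among them. That interval, from 20733951 to 20734300, was 350 bp wide with a score of 567 and a height of 81.0. Only 0.955% of the intervals on chromosome 1, itself included, were as high or higher, and it held 36.2% of the summed score of the window. Against the 317 intervals of the same width on that chromosome, whose median height was 39.6, it was higher than 97.2%. Its nearest neighbours were 9.90 kb before and 17.65 kb after it, so no other interval was listed close to it.

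The neighbours of this interval on both sides were lower. The interval before it, from 20723901 to 20724050, had a height of 19.5 and a score of 58.5, the lowest height of the 8. The interval after it, from 20751951 to 20752150, reached a height of 44.4 with a score of 178. Further towards the start of the window lay an interval from 20681501 to 20681600 with a height of 27.8 and a score of 55.5, and another from 20695451 to 20695750 with a height of 20.5 and a score of 123. The first 3 intervals of the window were thus all below 31.6, the median of the rest of the chromosome.

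The remaining 3 intervals lay close together in the last part of the window, after a stretch of 45.7 kb with none. The first of them, from 20797851 to 20797950, had a height of 38.8 and a score of 77.5. The next, from 20802551 to 20802850, had a height of 31.5 and a score of 189. The last, from 20809901 to 20810200, had a height of 52.7 and a score of 316, both second in the window. The gaps between them were 4.60 and 7.05 kb, the shortest in this window. Mcm3, which encodes a subunit of the replicative helicase, is the gene that follows Il17f in RefSeq, and which gene these 3 intervals belong to was not analysed here.

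Compared with other stretches of chromosome 1, the cytokine window had more intervals than most and a top interval that few exceeded. Its density was 5.0 per 100 kb (95% Poisson interval 2.16 to 9.85), against 3.02 in the rest of the chromosome, which lies inside that interval. Of 1212 adjoining windows of the same size, 18.9% held at least 8 intervals, and the median window held 3. At least as high a top interval was found in 3.88% of them. That share does not allow for the number of intervals, and a window with more of them is more likely to hold a high one. At least as large a summed score (1564 in this window) was found in 19.6%. The median height of the 8 was 35.1, near the 31.6 of the rest of the chromosome, and 4 of 8 were above it. The top interval was thus higher than the other 7, which lay between 19.5 and 52.7. It was singled out as the highest of 27 intervals in 5 windows, and the 3.88% does not allow for that choice. The surrounding megabase held 39 intervals, and 26.0% of the other 1 Mb windows of the chromosome held at least as many.

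**Figure D2:**
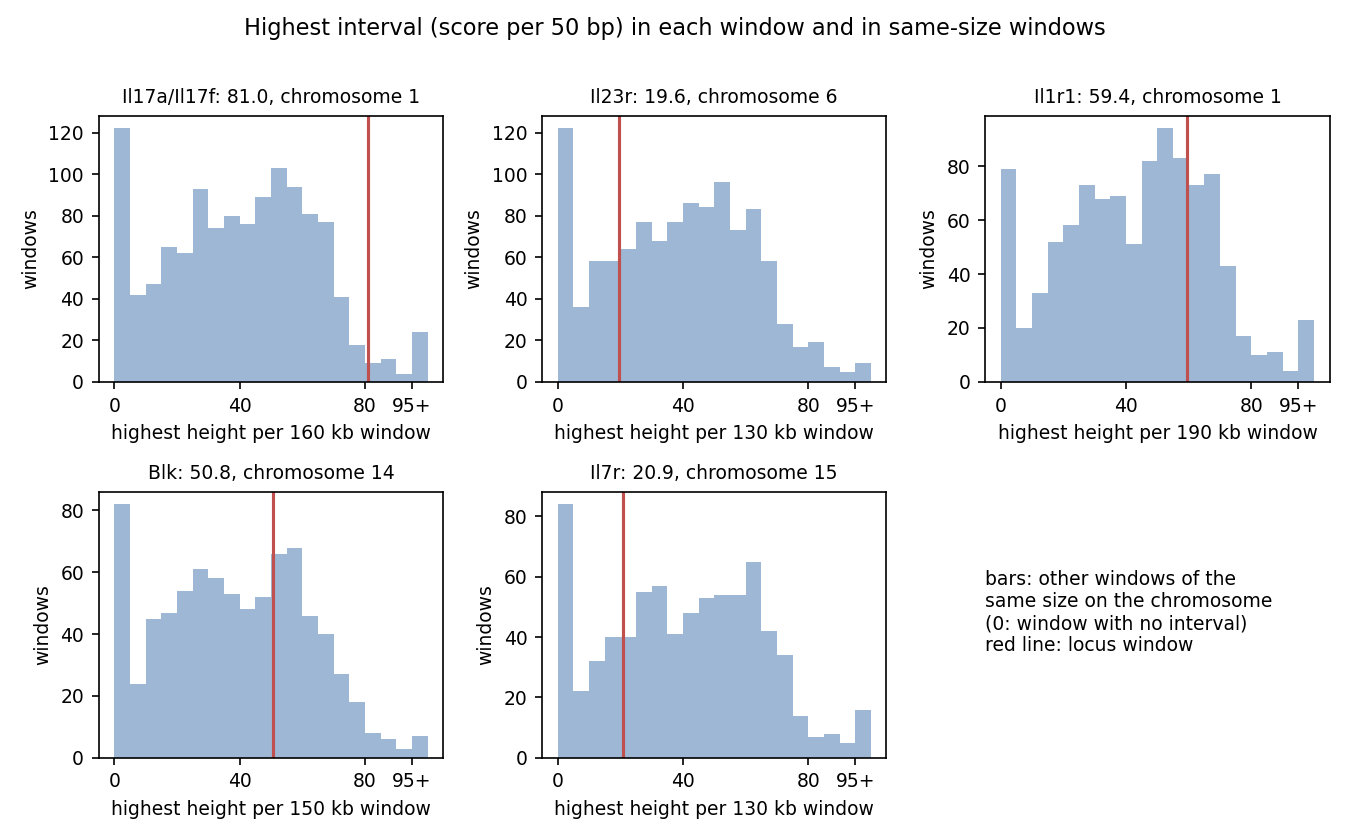
Histograms of the height of the highest interval (score per 50 bp, x axis) in all other windows of the same size on the chromosome, with the number of windows on the y axis and the locus window as a red line. Bars are 5 wide, windows with no interval count as 0 in the leftmost bar, and values from 95 up are in the last bar. The Il17a/Il17f line, at 81.0, is in the upper tail of its chromosome, while those of Il23r (19.6) and Il7r (20.9) lie in the lower part. The plot does not allow for the number of intervals in a window, which was 1 at Il7r.

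Of the receptor loci, Il1r1 held the most intervals, and they were unequal. Its window was also the largest, and per 100 kb it held 3.16 intervals against 3.08 at Il23r. Il1r1 encodes the signalling receptor for IL-1α and IL-1β. Its window, on chromosome 1 from 40230000 to 40420000, held 6 intervals with heights from 3.75 to 59.4 and a median of 19.2. The highest, from 40323301 to 40323700, was 400 bp wide with a score of 475.5, and it exceeded 92.6% of the intervals on the chromosome in height. The second, from 40382551 to 40383000, had a height of 42.3 and a score of 381. Among intervals of the same width on chromosome 1, 80.6% were lower than the first and 41.6% were lower than the second. The second was thus below the median of its width (45.4). These 2 intervals held 46.7% and 37.4% of the summed score of the window, so the other 4 held the small remainder.

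The 4 lower intervals at Il1r1 were all below the chromosome median of 31.6. The interval from 40342251 to 40342450, between the 2 highest of this window, had a height of 25.4 and a score of 101.5. Near the start of the window lay the interval from 40269401 to 40269500 with a height of 13.0 and a score of 26.0. The close pair lay before it, from 40252001 to 40252200 with a height of 5.88 and a score of 23.5, and from 40252301 to 40252450 with a height of 3.75 and a score of 11.2. As high or higher than the last of these were 98.6% of the intervals on chromosome 1. The 3 intervals before a gap of 53.8 kb were thus at 13.0 or lower, and the 3 after it at 25.4 or higher.

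The Il1r1 window was ordinary for its chromosome in number. Its density of 3.16 per 100 kb (1.16 to 6.87) was close to the 3.02 of the rest, and 37.6% of 1020 same-size windows held at least 6 intervals. As high a top interval was found in 26.4% of them and as large a summed score (1018) in 36.8%. The cytokine and Il1r1 windows lie on the same chromosome and share that background. Each of them had 1 interval above the 90th percentile of the rest of chromosome 1 (56.3).

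At Il23r the intervals were low. Il23r encodes the chain of the IL-23 receptor that gives it specificity for IL-23. Its window, on chromosome 6 from 67350000 to 67480000, held 4 intervals with heights from 11.5 to 19.6 and a median of 15.3. The rest of chromosome 6 had a median of 31.9 and a lower quartile of 19.3. All 4 were below that median, and 3 of the 4 were below the lower quartile.

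The widest of the 27 intervals was at Il23r, from 67458151 to 67458700, with a width of 550 bp. Its score of 187 was above the median of the list (134), but its height was 17.0. The 88 intervals of the same width on chromosome 6 had a median height of 47.3, and 5.68% of them were lower. It was thus a broad and shallow interval, and it held 59.8% of the summed score of the window. The others were the interval from 67397601 to 67397700 with a height of 19.6 and a score of 39.2, that from 67444601 to 67444750 with 13.6 and 40.8, and that from 67476051 to 67476250 with 11.5 and 46.0.

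In number, the Il23r window was near the middle of its chromosome. Its density was 3.08 per 100 kb (0.838 to 7.88), against 3.42 in the rest, and 45.5% of 1125 same-size windows held at least 4 intervals. In height it was in the lower part, since 76.1% of the windows had a top interval at least as high. As large a summed score (313) was found in 58.1%. The number of intervals and their height therefore placed this window differently. Widened by 20 kb on each side, the window held 7 intervals, and 30.3% of same-size windows held as many.

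Il7r had a single interval. Its window, on chromosome 15 from 9380000 to 9510000, held the interval from 9472051 to 9472550, which was 500 bp wide with a score of 209 and a height of 20.9. The 99 intervals of that width on chromosome 15 had a median height of 51.6, and 9.09% of them were lower, so this interval too was broad and shallow. The gap to the neighbours was 98.8 kb before and 100.8 kb after. No other of the 27 intervals was as far from both neighbours.

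The Il7r window held 1 interval (95% Poisson interval 0.0253 to 5.57, for counting error only), fewer than the median window of its chromosome. The mean density of the rest would give 6.15. Of 771 same-size windows on chromosome 15, 90.8% held at least 1 interval and 9.21% held none. How many held just 1 is not given here, so these shares do not place the window in the lowest part. As high a top interval was found in 76% and as large a summed score in 66.5%. Neither share allows for the number of intervals, and a window with 1 is less likely to hold a high one. The median window held 3 intervals, fewer than the 6.15 of the mean density. The surrounding megabase held 23 intervals, close to the median of 23.5 over the other 1 Mb windows. Its part outside the window held 22, or 2.53 per 100 kb, against 4.73 in the rest of chromosome 15. The sparse stretch was thus in a megabase of ordinary number. Widened by 20 kb on each side, the window held 2 intervals.

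**Figure D3:**
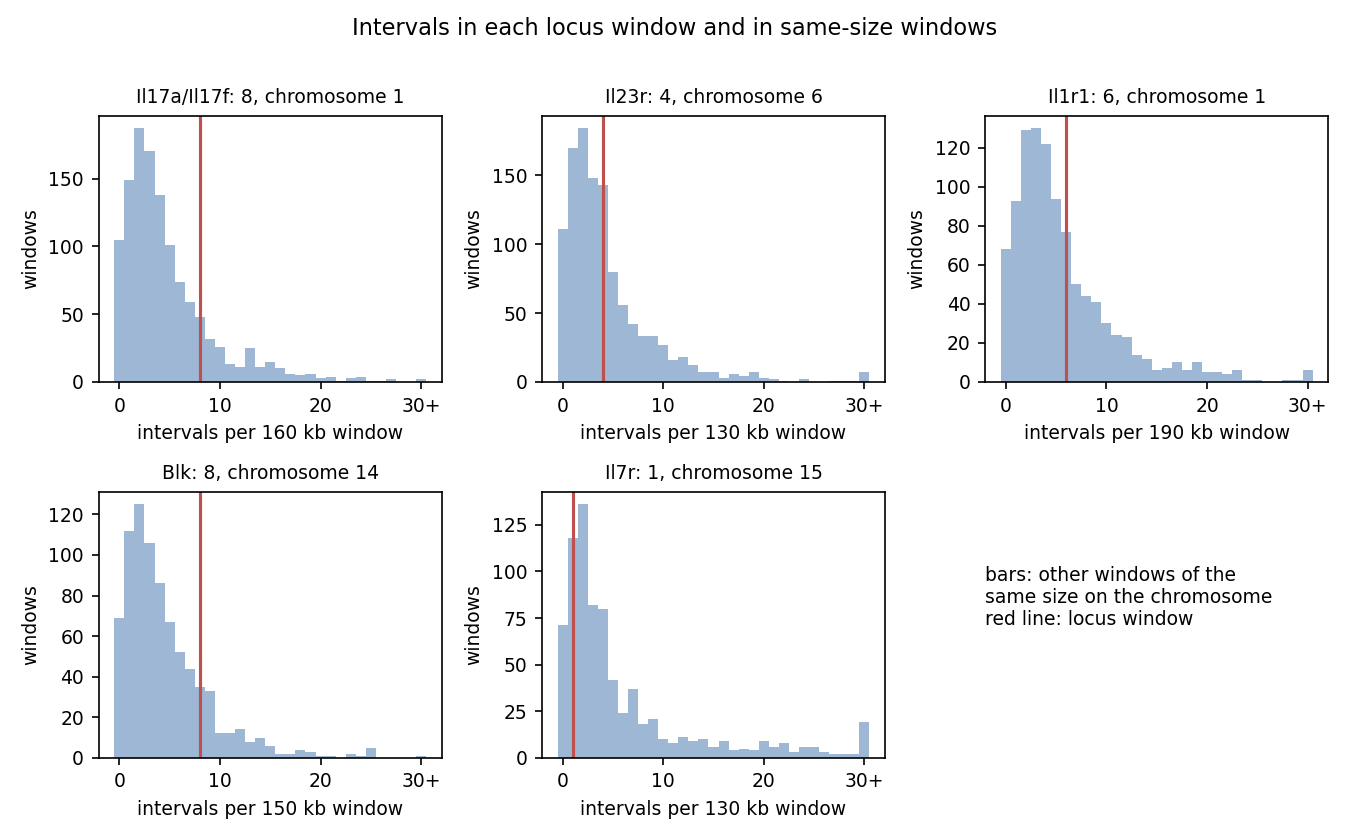
Histograms of the number of intervals per window (x axis) in all other windows of the same size on the chromosome, with the number of windows on the y axis and the locus window as a red line. Counts of 30 or more are in the last bar. The Il17a/Il17f and Blk lines, both at 8, are to the right of most windows, those of Il1r1 (6) and Il23r (4) are near the middle, and that of Il7r (1) is at the left.

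The Blk window held as many intervals as the cytokine window, with more even heights. It lies on chromosome 14 from 63940000 to 64090000. Its 8 intervals had heights from 24.2 to 50.8 with a median of 35.1, and 7 of 8 were above the median of the rest of the chromosome (30.5). None reached its 90th percentile of 54.7. The highest was the interval from 64070901 to 64071050, 150 bp wide with a score of 152, and the largest score, 248, was that of the interval from 63940901 to 63941150, with a height of 49.6. No interval held more than 22.8% of the summed score, the smallest such share of the 5 windows.

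The 8 intervals at Blk fell into a first and a last group of 4, separated by 54.5 kb with none listed. In the first group, after the interval from 63940901, lay those from 63958201 to 63958350 with a height of 33.8 and a score of 101, from 63981501 to 63981600 with 37.9 and 75.8, and from 63992201 to 63992300 with 31.1 and 62.2. In the last group, those beside the highest lay from 64046851 to 64047050 with a height of 24.2 and a score of 96.8, from 64055201 to 64055500 with 36.4 and 218, and from 64081051 to 64081250 with 33.5 and 134. All 4 of the first group and 3 of the 4 in the last were thus above the chromosome median of 30.5. The first interval of the window lay within 1 kb of its border, so its membership depends on where that border was set. With the window narrowed by 20 kb on each side, 4 intervals remained inside and 35.6% of same-size windows held as many, while the cytokine window narrowed alike held 7 (15.6%).

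Against its chromosome, the Blk window was like the cytokine window in number but not in its top interval. Its density was 5.33 per 100 kb (2.30 to 10.5), against 3.10 in the rest, which lies inside that interval. Of 813 same-size windows, 18.7% held at least 8 intervals, 34.1% had as high a top interval and 27.3% as large a summed score (1088). The flanks had a like density, with 44 intervals in the rest of the surrounding megabase, or 5.18 per 100 kb. The megabase held 52 intervals in all, and 15% of the other 1 Mb windows held at least as many. The density in the window was thus close to that of its flanks.

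Because height also rose with width in the list (Spearman rho 0.40 across intervals), each height was set beside that of intervals of the same width. Among intervals of the same width on the same chromosome, 13 of the 27 were above the median height and 14 below. Those above were 5 of 8 at Il17a/Il17f, 7 of 8 at Blk and 1 of 6 at Il1r1. At Il23r 0 of 4 and at Il7r 0 of 1 were above. The number of intervals in each window is small and the library is single, so whether these windows differ from each other was not tested.

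**Figure D4:**
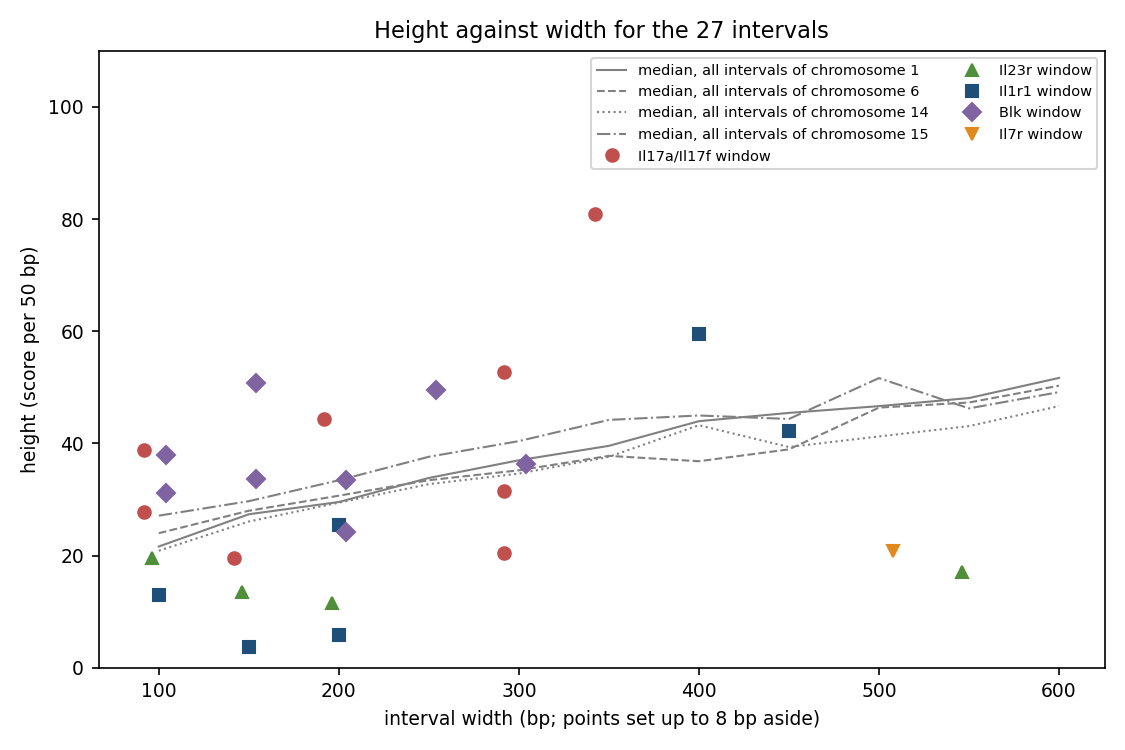
Height (score per 50 bp, y axis) against width (bp, x axis) for the 27 intervals, with a symbol for each window and grey lines for the median height of all intervals of that width on chromosomes 1, 6, 14 and 15. The highest point is the Il17a/Il17f interval at 81.0. The intervals of 500 bp (Il7r) and 550 bp (Il23r) lie far below the grey lines, at 20.9 and 17.0.

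Just outside the windows, the nearest intervals lay 3.15 kb after the Il23r window (height 19.0), 6.75 kb before the Il7r window (12.2), 11.9 kb after the Blk window (44.5) and 14.8 kb before the Il23r window (22.5). At the cytokine window they lay 31.4 kb before (26.6) and 49.5 kb after (29.8), and at Il1r1 25.1 kb before (23.9) and 70.2 kb after (5.50). Before the Blk window the nearest was at 65.0 kb, with a height of 55.3, above every interval inside that window. After the Il7r window it was at 63.4 kb (18.1). Just inside, the first interval at Blk (49.6) was the nearest to a start border and the last at Il23r (11.5) the nearest to an end border.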

How the data were processed

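The authors deposited 1 list of intervals for the TCF1 library, without a header, with a score for each interval. Per the submitters' processing notes, positions are in mm9. How reads were aligned, how intervals were called and whether the input was used is not given in the sources used here. Per the labels' protocols, fragments of 300 to 500 bp were amplified for 17 cycles. Starts and ends (100%) lay on a 50 bp grid that makes ends inclusive, and positions are counted from 1. Depth is unknown.

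The windows and gene list were chosen with earlier results of these data known. Every interval in a window is named, because no window held more than 10, with the nearest outside each border. Each window was set beside adjoining windows of its size over the stretch of its chromosome that holds intervals, without excluding assembly gaps. The top interval, summed score, same-width medians and 5 kb limit were added after the data were seen. Other genes of the IL-17 pathway were not analysed here for want of an mm9 annotation. The counting was tested on simulated data. Values were computed in Python 3.11.15 with pandas 2.3.3, numpy 2.4.6 and scipy 1.17.1, and plots with matplotlib 3.10.9.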

Additional observations from a re-analysis of the deposited data

How the results depend on the processing

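Under the alternatives, 79 of 115 values stayed near the main one and 36 moved. Near meant a factor of at most 1.5 for the number of intervals, inside the 95% Clopper-Pearson interval for shares of windows, and inside the order-statistic interval of the median (the range with fewer than 6 intervals) for heights. A median score was first divided by that of the chromosome and held against the height interval divided likewise. That range has no width for the single Il7r interval, so any change there counts as moved. With only the upper 50% of the list by score, the counts became 4 at Il17a/Il17f, 1 at Il23r, 2 at Il1r1 and 4 at Blk, and the shares of same-size windows with as many intervals became 21.8% at Il17a/Il17f, 68.0% at Il23r, 51.6% at Il1r1 and 67.8% at Il7r. With intervals joined within 1 kb the shares were 14.5% at Il17a/Il17f, 39.9% at Il23r, 41.5% at Il1r1 and 12.2% at Blk. With windows widened by 20 kb on each side the counts were 7 at Il23r and 2 at Il7r, the shares were 26.9% at Il17a/Il17f, 30.3% at Il23r, 47.0% at Il1r1, 22.2% at Blk and 85.1% at Il7r, and the median height at Il7r was 16.5. Narrowed by 20 kb on each side, the Blk window held 4, and the shares were 15.6% at Il17a/Il17f, 28.2% at Il1r1, 35.6% at Blk and 82.9% at Il7r. Against windows on all autosomes the shares were 27.3% at Il17a/Il17f, 45.3% at Il1r1 and 25.1% at Blk. Against windows with at least 1 interval they were 50.5% at Il23r and, by construction, 100% at Il7r. By score, the medians were 43.4 at Il23r and 208.8 at Il7r. Leaving out the 105 highest intervals of the list, stepping windows by 10 kb and using midpoints moved none of these values outside its limits. The share of windows with as high a top interval, whose alternatives were chosen after the data were seen, moved to 84.4% at Il23r and 83.7% at Il7r against windows with at least 1 interval, and to 32.04% at Il1r1 and 42.0% at Blk against all autosomes. The cause of these shifts was not tested, except that fewer intervals, other borders or other windows enter by construction. The unknown depth limits what can be said of low intervals and of stretches with none. No paired analysis was possible because the list comes from a single library.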
